A study of Homo sapiens with 24 samples.

Results

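KLHDC7B, C17orf107, KRTAP2-3, MYEOV, CSRP3, RIMS2 and RTKN2 are 7 of the 25992 gene names on the array, with no shared pathway. They were selected on their large differences between Pirfenidone and PBS in H1975 cells, measured on the arrays described here. All probes that carry one of these names in the scanner files were taken, 11 of 34127. Since the H1975 values chose the genes, those values are given as a description, and for these genes only A549 values, which the choice did not use, are read as tests.

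A549 and H1975 are human lung adenocarcinoma cell lines, and each stands for 1 tumor only. Each line received Pirfenidone, an antifibrotic drug approved for idiopathic pulmonary fibrosis, at 0.75 mg/ml, or PBS as the control, and RNA was taken after 6 h and after 24 h. The resulting 8 groups, A549 or H1975 with PBS or Pirfenidone at 6 h or 24 h, held 3 samples each, and every sample was hybridized to its own one-color Agilent array. The labels do not say whether the 3 samples of a group were separate cultures, so p-values measure the spread between samples, which may be technical.

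Levels are log2 processed spot signals from which the array's own 75th percentile was subtracted, so that 0 is the level of a rather bright probe and a difference of 1 is a 2-fold difference. The share of probes well above background ran from 62.7% to 69.5% per array, 0 probes were saturated, and the lowest signal that still counted as well above background lay between -7.74 and -6.59. By the day in their file names the arrays fell into 4 runs, and within H1975 the 4 arrays of run 1 stood apart for several of the genes, so values within runs are given beside the differences. All 6 epithelial markers examined stood well above background throughout both lines, while of 5 lung epithelial markers 2 were so on all A549 arrays and 3 on all H1975 arrays. Markers of other cell types were not absent: 3 of 3 endothelial, 3 of 4 fibroblast and 2 of 4 leukocyte markers were above that level on all H1975 arrays, and 1 of 3, 1 of 4 and 2 of 4 on all A549 arrays, and their part in the results was not tested. In bulk RNA, fewer cells that carry a transcript and less of it per cell cannot be told apart.

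The genes differ in what is known of them. KLHDC7B encodes a protein with kelch repeats, a fold that in related proteins binds substrates of ubiquitin ligases, and its own function is little understood. C17orf107 is an uncharacterized open reading frame that overlaps CHRNE, the epsilon subunit of the muscle acetylcholine receptor. KRTAP2-3 belongs to the hair keratin-associated proteins, which cross-link keratin filaments in the hair shaft. MYEOV lies near CCND1, the cyclin D1 gene, and was named for its overexpression in multiple myeloma. CSRP3 is the muscle LIM protein of the sarcomere's Z-disc, RIMS2 is a scaffold of the presynaptic active zone that binds Rab3, and RTKN2 is a relative of rhotekin.

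The first 30 bases of the 60-base probes that carry most of the values are shown so that the measured stretch can be placed, each 5′ to 3′ in the sense of the transcript with no part in capitals. Positions are those of the array files on hg19, namely chr22:50988455-50988514 and chr22:50989288-50989347 for KLHDC7B, chr17:4806148-4806207 for C17orf107, chr17:39215578-39215637 for KRTAP2-3, chr11:69064410-69064469 for MYEOV, chr11:19204050-19204109 for CSRP3 and chr10:63953225-63953284 for RTKN2, with KRTAP2-3, CSRP3 and RTKN2 on the minus strand. No annotation of hg19 was used, so whether a probe lies in coding or untranslated sequence is not given. The last line is a probe named KRTAP2-4 at chr17:39221320-39221369, which lists 4 transcripts, among them that of KRTAP2-3.
KLHDC7B A_24_P117410: gctcagggaaggggctgggatcggaacttc
KLHDC7B A_23_P6535: ttttctccccttacgcactttgaaacccat
C17orf107 A_33_P3272948: tctgaggctgtgtactatcagtatctgtct
KRTAP2-3 A_32_P24376: tagaactctgtcccactgactcatcaccct
MYEOV A_23_P360240: tgtgttgcatggccctcccaaccaattcag
CSRP3 A_23_P24469: tatgtgtttctcctcagaagtgatcaggtc
RTKN2 A_24_P13041: ctttacagagagaggcctactaatcaatgt
KRTAP2-4 A_23_P153022: agccctgctgccgcccggtgtgctgcgacc

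Among the 11 probes, 10 were fitted, the condition being a group whose 3 arrays all showed the probe well above background. The probe left out was A_24_P332816 of RIMS2, which was not well above background on any array. CSRP3, KRTAP2-3 and RIMS2 entered through H1975 alone, since none of their probes was well above background on an A549 array.

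**Figure D1:**
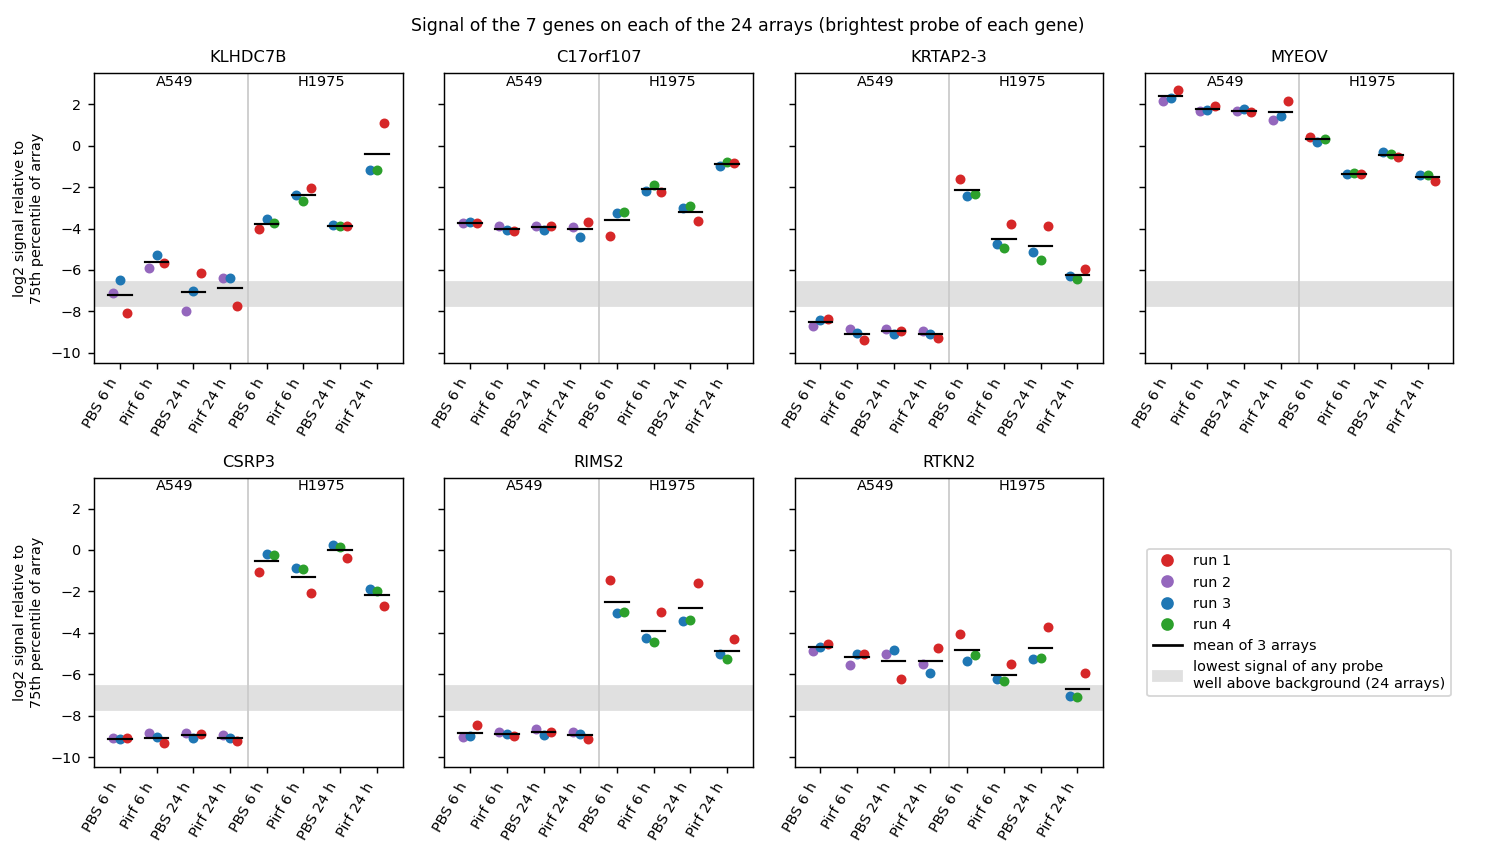
Log2 signal relative to the array's 75th percentile for the brightest probe of each of the 7 genes, with 1 point per array colored by run, black lines for the mean of 3 arrays and a gray band for the range, over the 24 arrays, of the lowest signal well above background. KLHDC7B and C17orf107 are highest in H1975 cells after 24 h of Pirfenidone, CSRP3, RIMS2 and KRTAP2-3 lie below the band in A549, and MYEOV is higher in A549 than in H1975.

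KLHDC7B displayed the largest difference in treated H1975 cells. Its probe A_24_P117410 read -3.84, -3.90 and -3.89 on the 3 PBS arrays at 24 h and -1.17, -1.15 and 1.08 on the 3 Pirfenidone arrays. All treated arrays lay above all controls, and the array of run 1 lay above the other treated arrays. The mean difference of 3.46 on the log2 scale is an 11.01-fold higher level, and the differences within runs were 4.97 in run 1, 2.67 in run 3 and 2.74 in run 4. The other probe, A_23_P6535, gave -3.73, -3.83 and -4.46 under PBS against -0.93, -0.92 and 0.57 under Pirfenidone, a difference of 3.58. These were the 2 largest increases among all 23827 probes fitted in H1975 at 24 h. Without the 4 arrays of run 1 the differences were 2.71 and 2.85.

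At 6 h the difference of KLHDC7B in H1975 was smaller. A_24_P117410 read -4.004, -3.56 and -3.72 under PBS and -2.40, -2.68 and -2.05 under Pirfenidone, a difference of 1.39, and A_23_P6535 differed by 1.51. Again the groups did not overlap, and the differences within runs lay between 1.05 and 1.96 for A_24_P117410. Between the PBS groups the level at 24 h differed from that at 6 h by -0.11 and 0.18, with overlapping arrays. In the order of the 8 groups, both Pirfenidone groups of H1975 came first, then both PBS groups of H1975, which overlapped each other, and then all A549 groups.

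C17orf107 was the other gene with a higher level in treated H1975 cells. The PBS arrays read -4.36, -3.25 and -3.20 at 6 h and -3.01, -2.92 and -3.66 at 24 h. With Pirfenidone they read -2.21, -1.89 and -2.22 at 6 h and -0.99, -0.79 and -0.85 at 24 h. Treated and control arrays were apart at both times. The mean differences were 1.498 at 6 h, a 2.83-fold higher level, and 2.32 at 24 h, a 5.00-fold higher level. Within runs the difference at 24 h was 2.81, 2.02 and 2.13 in runs 1, 3 and 4. At 24 h it ranked 15th among the increases.

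KRTAP2-3 was the gene that depended most on time. Under PBS it read -1.60, -2.43 and -2.33 at 6 h but -5.11, -5.54 and -3.88 at 24 h, so that the control level at 24 h differed from that at 6 h by -2.72 on the log2 scale. Pirfenidone arrays read -4.76, -4.94 and -3.80 at 6 h and -6.29, -6.46 and -5.94 at 24 h. Treated arrays at 6 h overlapped with the controls at 24 h. The difference from PBS was -2.38 at 6 h, a 5.20-fold lower level and the 3rd largest decrease of all probes, and -1.39 at 24 h, a 2.62-fold lower level that ranked 87th. Within runs it lay between -2.61 and -2.20 at 6 h and between -2.06 and -0.92 at 24 h.

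MYEOV differed little among the replicates of an H1975 group, with SDs from 0.04 to 0.18. It read 0.41, 0.20 and 0.30 under PBS and -1.36, -1.31 and -1.39 under Pirfenidone at 6 h, a difference of -1.66 or a 3.15-fold lower level. At 24 h the controls read -0.30, -0.41 and -0.57 and the treated arrays -1.40, -1.41 and -1.73, a difference of -1.09 or a 2.12-fold lower level. None of the treated arrays reached the controls at either time, and the differences within runs lay between -1.80 and -1.56 at 6 h and close to each other at 24 h, with -1.16, -1.10 and -1.001 in runs 1, 3 and 4. The control level at 24 h differed from that at 6 h by -0.73, while the treated means were -1.35 and -1.51. As a decrease MYEOV ranked 16th at 6 h and 307th at 24 h.

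CSRP3 showed the reverse timing. The PBS arrays read -1.08, -0.21 and -0.24 at 6 h against -0.87, -0.92 and -2.07 for Pirfenidone, so the groups overlapped, and the difference was -0.78. Within runs, however, the treated array was lower each time, by -0.99, -0.66 and -0.68. By 24 h the controls read 0.23, 0.13 and -0.37 and the treated arrays -1.88, -1.98 and -2.69. This difference of -2.18, a 4.53-fold lower level, was the largest decrease among the probes that passed the call rule and the 3rd largest of all, and it was -2.32, -2.11 and -2.11 within runs 1, 3 and 4. On both sides the run 1 array was the lowest.

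RIMS2 and RTKN2 ran in parallel over the H1975 arrays. RIMS2 probe A_23_P147786 read -1.43, -3.03 and -3.01 under PBS and -4.24, -4.45 and -3.00 under Pirfenidone at 6 h, and -3.41, -3.40 and -1.61 against -5.03, -5.28 and -4.28 at 24 h. The groups touched at 6 h and were apart at 24 h. In each of the 4 groups the array of run 1 was the highest. The differences were -1.41 at 6 h and -2.06 at 24 h, a 4.16-fold lower level, and without the arrays of run 1 they were -1.33 and -1.75.

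RTKN2 probe A_24_P13041 read -4.04, -5.34 and -5.07 under PBS and -6.22, -6.31 and -5.52 under Pirfenidone at 6 h. At 24 h it read -5.27, -5.22 and -3.73 against -7.03, -7.10 and -5.96. The groups did not overlap at either time, and the array of run 1 was again the highest of each group. The differences were -1.19 at 6 h and -1.96 at 24 h, a 3.88-fold lower level, with -2.23, -1.76 and -1.87 within runs 1, 3 and 4 at 24 h. With normexp background correction the RTKN2 difference at 6 h turned to 0.29, where the probe passed in neither setting. Among decreases at 24 h, RIMS2 ranked 7th and this probe of RTKN2 12th.

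By the call rule, which asks for a p of at most 0.05 in limma after Benjamini-Hochberg adjustment and a log2 difference of 1 or more in size, 3 of the 10 member probes passed in H1975 at 6 h, where 0.491% of all probes did. At 24 h 8 of the 10 passed, where 1.89% of all probes did, 3 of them higher and 5 lower, and all 7 genes had a probe among them. The genes were chosen for these differences, so nothing follows from the counts.

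**Figure D2:**
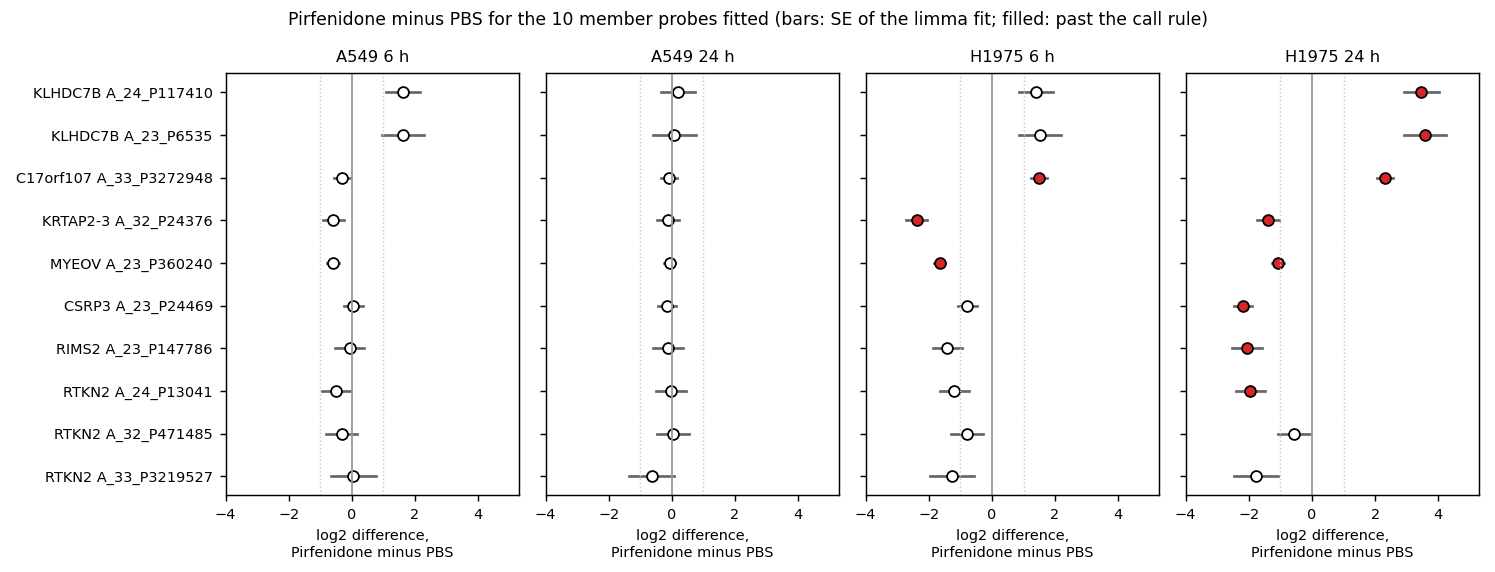
Log2 difference between Pirfenidone and PBS for the 10 member probes fitted, in 1 panel per cell line and time, with bars for the SE of the limma fit and filled points for probes past the call rule. No point is filled in A549, 3 are filled in H1975 at 6 h and 8 at 24 h, and KLHDC7B lies to the right of 1 in A549 at 6 h as in both H1975 panels.

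Of the 10 member probes, 6 had an A549 group with all 3 arrays well above background, namely both probes of KLHDC7B, those of C17orf107 and MYEOV, and A_24_P13041 and A_32_P471485 of RTKN2, and the other 4 entered the fit through H1975 alone. In A549 none of the 10 passed at 6 h, where 0.176% of all probes did, and none passed at 24 h, where 0.0126% did. At an unadjusted p under 0.05, limma gave 3 of the 10 at 6 h, where 6.01% of all probes passed that level, and 0 at 24 h, where 0.953% did. Both probes of KLHDC7B were among the 3. A_24_P117410 read -7.10, -6.48 and -8.10 under PBS and -5.89, -5.29 and -5.65 under Pirfenidone at 6 h. All treated arrays lay above all controls, as they did for A_23_P6535, and the difference was 1.62 for each probe. For A_24_P117410 the 95% interval was 0.47 to 2.76 with an adjusted p of 0.434 in limma, and for A_23_P6535 it was 0.21 to 3.03 with an adjusted p of 0.666. The difference was positive within each of the 3 runs for both probes, between 0.75 and 2.45. Signals were dim, however: under PBS at 6 h A_24_P117410 was well above background on 1 array and A_23_P6535 on none, while both were so on all 3 Pirfenidone arrays. By the lowest signal well above background, A_23_P6535 was at least 1.34-fold higher with Pirfenidone. With normexp background correction the differences shrank to 0.55 and 0.33.

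At 24 h KLHDC7B in A549 differed by 0.20 and 0.08, with intervals from -0.95 to 1.34 and from -1.33 to 1.49. The runs disagreed, since A_24_P117410 gave -1.62 in run 1 but 1.58 and 0.63 in runs 2 and 3. With the pair of A549 arrays from run 1 left out at 24 h the differences were 1.105 and 1.38, with adjusted p-values of 0.663 and 0.602 in limma. The difference between the 24 h and the 6 h change in A549 gave an adjusted p of 0.999948 in limma for each of the 6 probes measured in A549.

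MYEOV was the third probe. In A549 it read 2.14, 2.29 and 2.70 under PBS and 1.67, 1.74 and 1.90 under Pirfenidone at 6 h, so that all treated arrays lay below the controls. The difference was -0.61, with an interval from -0.995 to -0.22 and an adjusted p of 0.305 in limma, and it was negative in all 3 runs. The adjusted p in limma was 0.0635 with run within each line as a block and 0.778 with normexp. Without the pair of A549 arrays from run 1 at 24 h it was 0.0472 in limma. The difference stayed under 1 in size and passed the call rule in none of these settings. At 24 h it was -0.07, with an interval from -0.46 to 0.31, and run 1 with 0.57 ran against -0.43 and -0.36 in runs 2 and 3. With the pair of run 1 arrays left out it was -0.40, with an adjusted p of 0.511 in limma. The control level of MYEOV in A549 at 24 h differed from that at 6 h by -0.68 (adjusted p of 0.2002 in limma). With run within each line as a block the adjusted p was 0.0392 in limma, and with normexp it was 0.999994. Of the 10 member probes, 0 passed for time in PBS treated A549 cells, where 0.109% of all probes did. At an unadjusted p under 0.05 that comparison gave 1 of the 10 in limma, against 8.49% of all probes.

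C17orf107 was well above background on all A549 arrays, where all its values lay between -4.43 and -3.69. With Pirfenidone it read -3.89, -4.09 and -4.14 at 6 h against -3.74, -3.69 and -3.75 under PBS, a difference of -0.31 with an interval from -0.84 to 0.21. At 24 h the difference was -0.09, with an interval from -0.61 to 0.44. RTKN2 probe A_24_P13041 differed by -0.49 at 6 h and by -0.03 at 24 h in A549, with intervals from -1.46 to 0.48 and from -0.997 to 0.94. Here, too, run 1 at 24 h ran against the other runs, with 1.51 against -0.50 and -1.10. Without both arrays of that run the RTKN2 difference at 24 h was -0.80 with an adjusted p of 0.751. CSRP3, KRTAP2-3 and RIMS2 give no A549 change, since all their A549 signals, from -9.37 to -8.37, were not well above background.

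**Figure D3:**
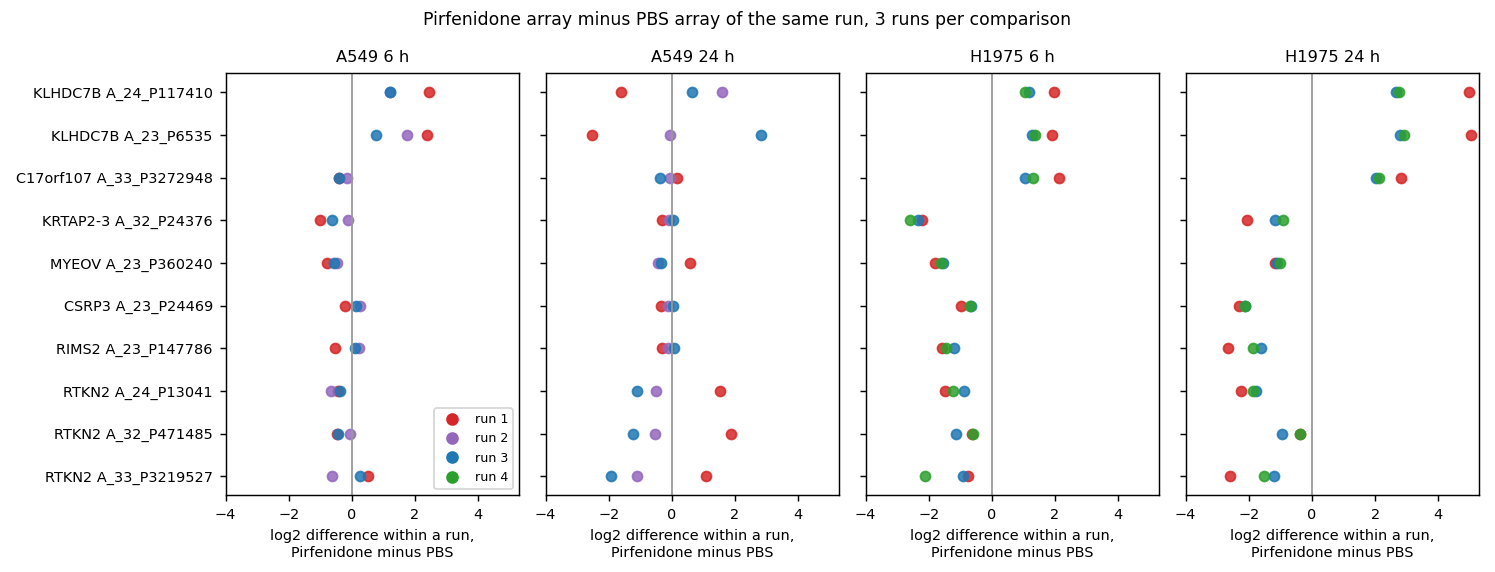
Log2 difference between the Pirfenidone and the PBS array of the same run for the 10 member probes fitted, with 3 runs per panel and 1 point per run. In both H1975 panels all 3 points of each probe lie on 1 side of 0, whereas in A549 at 24 h the run 1 points of KLHDC7B A_24_P117410, C17orf107, MYEOV and the RTKN2 probes lie opposite to the others. In A549 the points of CSRP3, KRTAP2-3 and RIMS2 are differences between signals not well above background.

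Between the cell lines the levels differed widely before any drug. CSRP3 was at least 82.2-fold higher in H1975 than in A549 under PBS at 6 h and at least 106-fold higher at 24 h. KRTAP2-3 was at least 27.0-fold higher at 6 h and at least 3.69-fold higher at 24 h, and RIMS2 at least 20.9-fold and at least 15.1-fold. These bounds set the H1975 mean against the lowest signal well above background on the A549 arrays. These 3 genes were chosen in H1975 and entered the fit through it alone. A higher level there was thus built into their selection, and the values are a description. KLHDC7B A_23_P6535 was at least 6.43-fold higher at 6 h and at least 6.596-fold higher at 24 h. MYEOV went the other way, with a level 4.21-fold higher in A549 at 6 h and 4.35-fold higher at 24 h. C17orf107 and RTKN2 A_24_P13041 overlapped between the lines under PBS at 6 h, with differences of 0.12 and -0.12. At 24 h C17orf107 was 1.67-fold higher in H1975 without overlap, and RTKN2 A_24_P13041 differed by 0.61 with overlap. The RTKN2 probes disagreed under PBS at 6 h. A_32_P471485 was 2.23-fold higher in A549 without overlap, and A_33_P3219527 differed by 0.97 towards H1975 with overlap. Under Pirfenidone at 24 h CSRP3, RIMS2 and KRTAP2-3 were at least 26.2-fold, 4.09-fold and 1.58-fold higher in H1975.

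Of other muscle markers beside CSRP3, DES was well above background on all arrays of both lines, TNNT2 on 3 A549 and 5 H1975 arrays, ACTN2 on 5 and MYH7 on 2 H1975 arrays only, and MYOD1 on none. Their part in the CSRP3 level was not tested.

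Probes of 1 gene agreed for KLHDC7B, whose pair correlated with an r of 0.973 over the 12 H1975 arrays. For RTKN2 the 3 probes correlated with r between 0.728 and 0.868 over the same arrays, which share lines, treatments and runs. A_33_P3219527 differed by -1.27 at 6 h and by -1.77 at 24 h, where it was well above background on 3 PBS and on 0 Pirfenidone arrays and thus at least 2.42-fold lower with Pirfenidone. A_32_P471485 differed by -0.78 and -0.57 with overlapping groups, and it was well above background on 1 of 3 arrays in 3 of the 4 H1975 groups. For RIMS2 only A_23_P147786 gave a signal, so its change rests on 1 probe, as do those of C17orf107, KRTAP2-3, MYEOV and CSRP3.

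**Figure D4:**
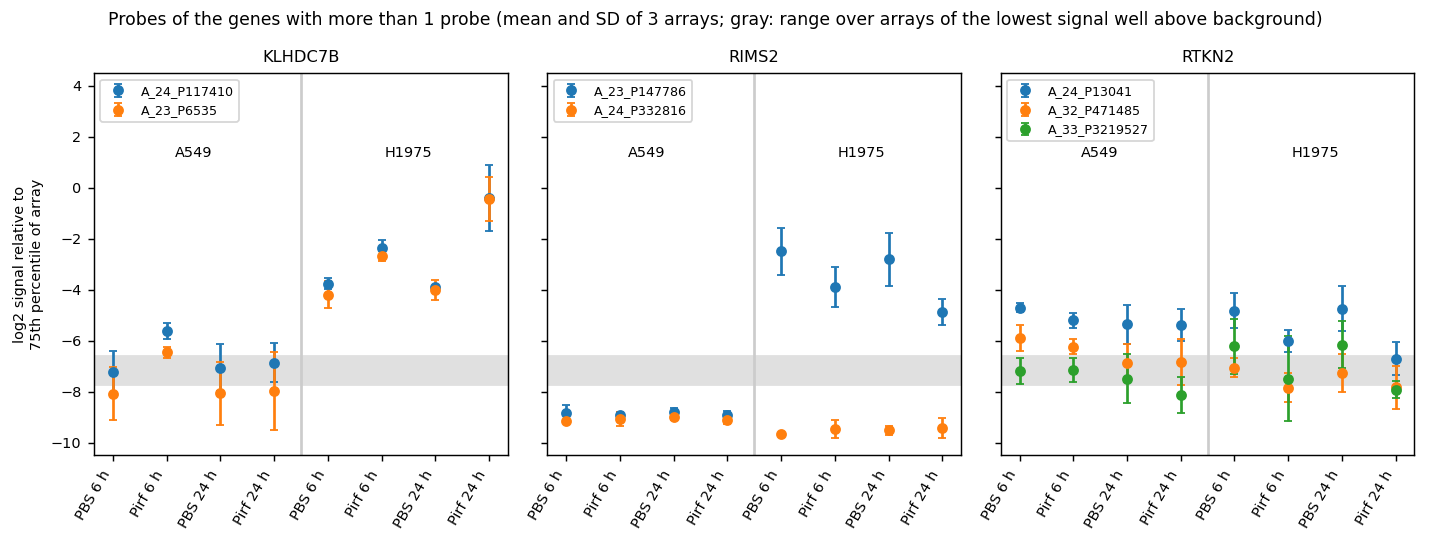
Mean log2 signal relative to the array's 75th percentile for each probe of the 3 genes with more than 1 probe, with bars for the SD of 3 arrays and a gray band for the range of the lowest signal well above background. Both KLHDC7B probes follow each other in H1975, 1 RIMS2 probe stays below the band in all 8 groups, and 2 of the 3 RTKN2 probes lie in or near it.

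Relatives and neighbors of the members mostly did not pass the call rule, as held for most probes, since at most 1.89% of all probes passed in any comparison. CHRNE, on the strand opposite to C17orf107, was not well above background on any A549 array, and in H1975 it differed by 0.36 ± 0.33 (SE) at 6 h and 0.70 ± 0.33 at 24 h, with an adjusted p of 0.831 and 0.229 in limma. The probe named KRTAP2-4 that also lists the KRTAP2-3 transcript read between 1.71 and 2.61 on all 24 arrays and differed by 0.15 ± 0.22 at 6 h and 0.11 ± 0.22 at 24 h in H1975. A second KRTAP2-4 probe was not well above background on any array. KRTAP2-1, the closest relative with a signal of its own, differed by 0.27 ± 0.23 and 0.29 ± 0.23.

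CCND1, the cyclin D1 gene beside MYEOV, differed by -0.41 ± 0.14 at 6 h (adjusted p of 0.226) and by 0.02 ± 0.14 at 24 h in H1975. CSRP1 and CSRP2, the LIM proteins related to CSRP3, differed at 24 h by 0.36 ± 0.27 and -0.23 ± 0.22. RTKN, the relative of RTKN2, differed by -0.27 ± 0.28. RIMS3, a short relative of RIMS2, gave 0.43 ± 0.26 with its brightest probe (adjusted p of 0.361) but 1.12 ± 0.28 with another (adjusted p of 0.0255), so its probes disagreed on the call. KLHDC7A was not well above background on any array, and RIMS1 was so on at most 1 array of a group, so neither was tested. Apart from that RIMS3 probe, the adjusted p of these tested relatives in H1975 was above 0.05 at both times.

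By list, 0 of 8 kelch domain relatives of KLHDC7B tested passed in any comparison, and the same held for 10 neighbors of C17orf107 on 17p13, 12 hair keratin-associated genes, 13 relatives and muscle partners of CSRP3 and 16 genes of the presynaptic active zone. With at most 1.89% of all probes passing in a comparison, lists of this size would give few or no calls anyway. The medians of these lists in H1975 at 24 h were 0.28, -0.0015, 0.11, 0.23 and 0.29, beside 0.02 for all probes. Among 11 neighbors of MYEOV on 11q13, 1 passed in H1975 at 24 h, and with normexp none did. It was FGF19, an endocrine fibroblast growth factor, which read -8.75 ± 0.56 under PBS and -6.57 ± 0.31 under Pirfenidone (SD, n = 3), at least 1.62-fold higher. FGF19 was well above background in that treated group alone and entered the fit through it, so no p is given. In A549 none of these genes passed.

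**Figure D5:**
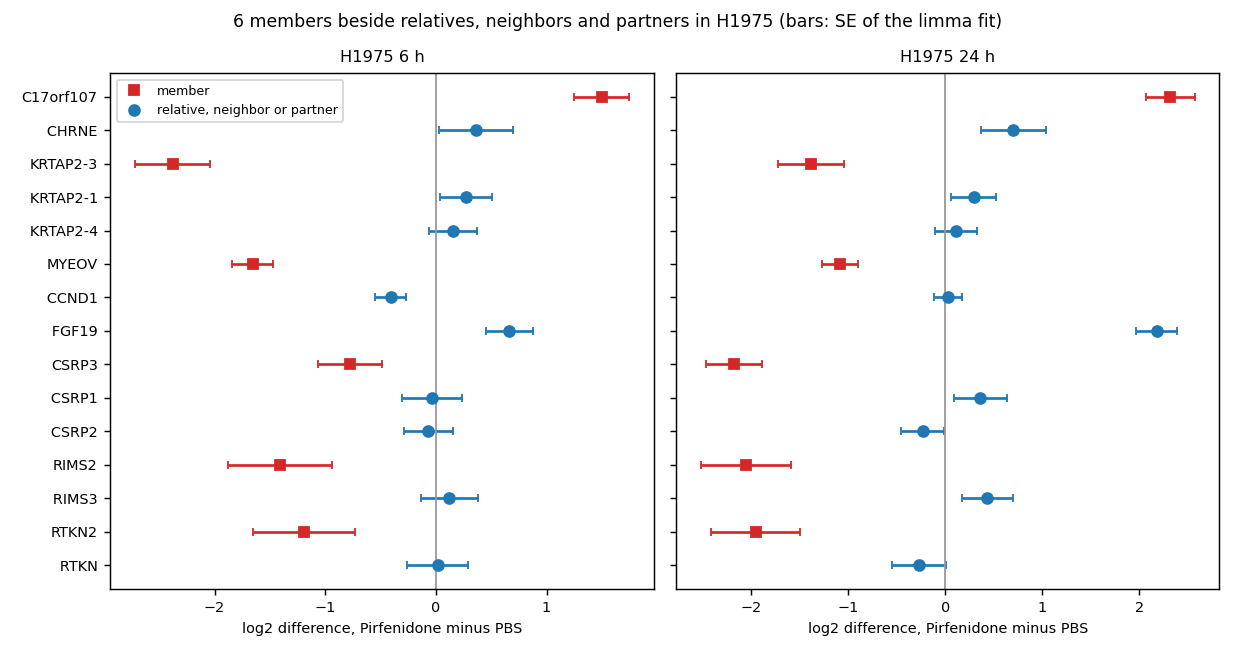
Log2 difference between Pirfenidone and PBS in H1975 at 6 h and 24 h for 6 members (red squares, brightest probe) and for relatives, neighbors or partners of each (blue circles), with bars for the SE of the limma fit. Apart from FGF19 at 24 h, the blue points lie closer to 0 than the member above them.

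The reference list of the amino acid response, the ATF4 driven program that cells switch on when amino acids run short or the endoplasmic reticulum is stressed, differed from the lists above. This list was chosen with earlier results of these data known. In H1975 12 of 18 genes passed as higher at 6 h and 15 at 24 h, where 0.491% and 1.89% of all probes passed in either direction. The medians were 1.199 and 1.69, beside 0.05 and 0.02 for all probes. In A549 5 of 18 passed as higher at 6 h with a median of 1.07, where 0.176% of all probes passed. At 24 h 0 passed with a median of -0.07, where 0.0126% of all probes did. That share is 3 of 23827 probes. Without the pair of A549 arrays from run 1 at 24 h it was 8 probes, and 95 with run as a block besides. CHAC1, which degrades glutathione, rose by 3.20 ± 0.36 (SE) at 6 h and 2.77 ± 0.36 at 24 h in H1975, and by 2.29 ± 0.36 at 6 h in A549. ADM2, a secreted peptide of the adrenomedullin family, rose by 2.23 ± 0.24, 2.49 ± 0.24 and 2.02 ± 0.24 in the same comparisons, and DDIT3, the transcription factor CHOP, by 2.08 ± 0.42, 1.71 ± 0.42 and 2.19 ± 0.42. In A549 at 24 h CHAC1 read 0.24, 0.36 and 1.77 under PBS in runs 2, 3 and 1. Under Pirfenidone it read 0.15, 0.86 and 0.44 in the same runs. As the list was chosen with earlier results known, its counts and values are a description, and no p is given.

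Genes most like each member were sought by Pearson's r over the 12 H1975 arrays among the fitted probes. The arrays share treatment, time and run, so r describes likeness over all of these at once. For C17orf107 they were ALDH1L2, a mitochondrial folate enzyme (r of 0.985), ULBP1, a ligand of the receptor NKG2D (0.979), and CLCN3, a chloride transporter (0.978). ALDH1L2 differed by 0.93 at 6 h and 1.82 at 24 h in H1975. In A549 at 6 h ALDH1L2, ULBP1 and CLCN3 differed by 1.19, 2.04 and 0.16, whereas C17orf107 differed by -0.31. KLHDC7B A_24_P117410 was closest to MBP, FAM129A and FAM219A (0.977, 0.976 and 0.976), and A_23_P6535 to TNFRSF10B, a death receptor for TRAIL, TPBG and TMEM106B (0.980, 0.980 and 0.976).

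On the other side, RIMS2 was closest to ZNF257 (0.990), ARRDC1-AS1 (0.985) and LOXL3 (0.985), and RTKN2 A_24_P13041 to DIEXF (0.983), RIMS2 (0.979) and ARRDC1-AS1 (0.97). MYEOV was closest to PRPF38B, a splicing factor, AEN, a nuclease of the p53 response, and TEFM, a mitochondrial transcription factor (0.979, 0.972 and 0.969). CSRP3 was closest to FANCC of the Fanconi anemia pathway, CYB5B and LOC100129888 (0.962, 0.946 and 0.945), and KRTAP2-3 to LARP1B, IPPK and HAS2, the hyaluronan synthase (0.969, 0.962 and 0.952).

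Promoter sequences of RefSeq (GRCh38.p14) were at hand for 3 of the 7 genes, KLHDC7B, KRTAP2-3 and RTKN2. The 250 bases before the gene's start are shown for the 2 with a match to a searched motif, at chr22:50545649-50545898 on the plus strand for KLHDC7B and chr10:62268845-62269094 on the minus strand for RTKN2, 5′ to 3′ with the match in capitals.
KLHDC7B: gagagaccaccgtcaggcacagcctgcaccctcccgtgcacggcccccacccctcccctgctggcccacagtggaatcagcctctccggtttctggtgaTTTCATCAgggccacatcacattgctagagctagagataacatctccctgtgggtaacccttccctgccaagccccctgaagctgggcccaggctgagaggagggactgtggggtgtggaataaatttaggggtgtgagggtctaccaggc
RTKN2: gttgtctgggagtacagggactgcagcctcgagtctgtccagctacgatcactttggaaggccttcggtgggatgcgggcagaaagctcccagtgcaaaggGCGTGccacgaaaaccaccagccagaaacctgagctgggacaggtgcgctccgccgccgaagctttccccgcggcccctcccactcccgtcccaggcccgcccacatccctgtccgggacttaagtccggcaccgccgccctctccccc
The motifs were searched on both strands in 250 bases before and 50 bases after the start. TGATGNAA, the core of the amino acid response element, matched once in KLHDC7B, on the minus strand with its first printed base at -151, and occurs in 3.62% of all 35116 promoters. GCGTG, the core of the dioxin response element, matched once in RTKN2 at -149 and occurs in 36.5%. TGANTCA, the AP-1 site, and TGACNNNGC, the antioxidant response element, matched in none of the 3 and occur in 7.71% and 13.3%, and KRTAP2-3 held no match. A match describes letters and does not show binding.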

How the data were processed

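RNA of the 24 samples was labeled with a single dye and hybridized to Agilent arrays. The authors deposited scanner files with the intensity of each spot, extracted with Feature Extraction 11.5.1.1, which subtracts background and flags outlier, saturated and well above background spots. The authors also deposited processed log2 values, centered per probe, with column medians between -0.163 and 0.156. After centering, these correlated with the scanner values with an r of 0.9994 and served as an alternative. The sources used here do not give the scaling behind the authors' values.

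From the scanner files, log2 processed signals of the 43118 spots that are not controls were set relative to each array's 75th percentile, without outlier spots, and replicate spots were averaged per probe. A probe was well above background if at least 0.5 of its spots were. The 23827 of 34127 probes well above background on all 3 arrays of a group were fitted with limma 3.58.1 in R 4.3.3, with 8 groups and 16 residual degrees of freedom, and Benjamini-Hochberg adjustment. The fit was tested on simulated data with noise drawn independently for each array. Such data hold no deviations shared by the arrays of a run, so they do not test the fit for those. A bound ("at least") sets the brighter group's mean against, per array of the dim group, the higher of the lowest signal well above background and the probe's own signal. A gene of a list is represented by its brightest probe. Alternatives were normexp background correction, quantile normalization, the authors' values, other filters on dim probes, Holm adjustment, blocks by slide, by run or by replicate number, a fit of only the arrays compared and each replicate left out.

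Conditions and replicate numbers came from the labels. Within each comparison of Pirfenidone with PBS, replicate numbers followed the runs except in H1975 at 6 h. There, deviations from the group means correlated with r of -0.48, 0.43 and -0.68 by number, but 0.50, 0.70 and 0.82 by run. Named are all members, their closest relatives, the genes of each list that passed (up to 4 with the largest change) and the 3 most similar genes per probe. The members and lists were chosen with earlier results of these data known. Gene names are those of the array files, and all 7 members matched a RefSeq gene. The number of arrays limits precision. Results for 1 further gene list are not reported here.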

Additional observations from a re-analysis of the deposited data

Results flagged for a closer look

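C17orf107 at 6 h moved up within every run in H1975 and down within every run in A549. The mean difference within runs was 1.81 higher in H1975 than in A549 on the log2 scale. In H1975 the 3 runs gave 2.14, 1.05 and 1.31 (runs 1, 3 and 4), and in A549 they gave -0.39, -0.15 and -0.40 (runs 1, 2 and 3). The A549 difference of -0.31 had a 95% interval from -0.84 to 0.21 and did not pass the call rule. The difference between the lines was not tested, since the H1975 values chose the gene.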

How the results depend on the processing

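Directions of the member differences that passed in H1975 were the same under all alternatives run. Member counts in A549 were 0 in every comparison and under every alternative, including each replicate left out. In H1975 at 6 h the count of 3 became 5 with run within each line as a block (added after seeing the data), 5 with run as a block less the pair of A549 arrays from run 1 at 24 h (also added) and 1 in a fit of only the 6 arrays compared, and it stayed at 3 with each replicate left out. With normexp it was also 3, but KRTAP2-3 lost its call and KLHDC7B A_23_P6535 gained one. Slide or run as a block gave 4, with RIMS2 gained. Holm adjustment gave 2, with C17orf107 lost, and probes well above background on all arrays gave 2 of the 3 fitted. In H1975 at 24 h the count of 8 became 5 with normexp background correction, 3 among probes well above background on all arrays, where only 3 member probes were fitted, 2 with Holm adjustment and 4 with only the 6 arrays compared. With each replicate left out it ranged from 5 to 8. It was 5 without PBS replicate 3 and without Pirfenidone replicate 2, which lost RIMS2, RTKN2 and KRTAP2-3, and 5 without Pirfenidone replicate 3, which lost MYEOV, KRTAP2-3 and a KLHDC7B probe. Without the 4 H1975 arrays of run 1 (added) the counts were 4 and 7. The replicate block is a fit by number, which joins different runs across the lines. With it the counts were 0, 0, 0, 3 and 8, the same as without it. Over all probes the calls in H1975 at 24 h ranged from 33 with Holm adjustment to 708 with run as a block less the pair of A549 arrays from run 1 at 24 h, beside 451.

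Normexp moved the median of all probes in H1975 at 6 h from 0.05 to 0.29. There the 3 RTKN2 probes, which had not passed, changed sign to 0.29, 1.104 and 0.89, RIMS2 became -0.39 and KRTAP2-3 -1.18. In H1975 at 24 h normexp moved RIMS2 from -2.06 to -1.52 and RTKN2 A_24_P13041 from -1.96 to -1.004. It moved KRTAP2-3 there from -1.39 to -0.79, and all 3 of these probes lost their calls. The cause was not tested. In H1975 at 24 h the MYEOV neighbors that passed went from 1 to 0 with normexp, and the presynaptic list from 0 to 1 with the replicate block and with run as a block. The amino acid response list in A549 at 6 h went from 5 to 8 with run as a block. Of the 30 most similar genes, 1 was shared when all 24 arrays were used. Dim signals limit KLHDC7B in A549 and 2 RTKN2 probes.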
